A study of Homo sapiens with 6 samples.

Results

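The collagens, laminins and integrins of SK-N-BE(2) cells were examined in RNA sequencing data from cells in which Prp19 had been knocked down. SK-N-BE(2) is an established human neuroblastoma cell line, and Prp19, encoded by PRPF19, is a pre-mRNA splicing factor. There were 3 samples of cells given a negative control siRNA (NC) and 3 samples of cells given siRNA against Prp19 (siPrp19), with replicate numbers 1 to 3 in each group. All 6 samples came from the same line, whose medium held fetal bovine serum, and the labels give 72 h of transfection, while the methods of the study give a shorter time. The members were all protein-coding genes with a symbol of the form COL, a number, A and a number, of the form LAMA, LAMB or LAMC with a number, or beginning with ITGA or ITGB, apart from the ITGB1BP genes. Of 84 such genes, 41 had a mean of at least 0.5 FPKM (fragments sequenced, scaled to exon length and library size) over the 6 samples. They were 20 of 44 collagens, 6 of 12 laminins and 15 of 28 genes with an integrin symbol, and 17610 of all 58302 genes in the files reached the same level. One of the 15, ITGB3BP, carries an integrin symbol but encodes a centromere protein and no integrin subunit. The members just above the level were LAMB3 (mean 0.576 FPKM), COL11A2 (0.729) and ITGA6 (0.831), and the genes just below it were ITGA7 (0.466), ITGB8 (0.416), LAMA4 (0.413) and COL5A2 (0.364).

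Collagens are secreted as trimers of α chains and form the fibrils, networks and microfilaments of the extracellular matrix. Laminins are cross-shaped trimers of an α, a β and a γ chain and form the scaffold of basement membranes. Integrins are membrane receptors made of an α and a β subunit, in which the α subunit largely sets whether collagen, laminin or proteins with an arginine-glycine-aspartate (RGD) motif are bound. Neuroblastoma cells use them to attach to and move through matrix, and tumour stroma makes many of the same collagens.

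PRPF19 was lower in every siPrp19 sample than in every NC sample. Its level was 53.1, 53.1 and 64.9 FPKM with NC and 21.8, 28.5 and 33.6 FPKM with siPrp19, a mean of 49% of the NC mean (exact two-sided permutation p = 0.1, the smallest that 3 against 3 samples allow). Within the same-numbered pairs, siPrp19 left 41%, 53.6% and 51.7% of the NC level, the lowest in pair 1. PRPF19 itself had a limma adjusted p of 1.0000 without a block and of 2.14e-14 with limma voom, a fit for counts, on the reads recovered from the FPKM values, blocked by replicate number. These reads came to 18810317 to 21656117 on genes in the NC samples and to 21984300 to 23912573 in the siPrp19 samples. The sums include rounded values of genes without whole reads and are not exact counts. In replicate 2 they exceeded the library size implied by the FPKM, 17609744 with NC and 20791923 with siPrp19. All 9 adrenergic neuroblastoma markers were measured, and their summed level was 2040 to 2147 FPKM with NC and 1905 to 2452 FPKM with siPrp19. MYCN alone measured 801 to 1215 FPKM, so the sum hides single markers. DBH was 44.2, 30 and 3.49 FPKM with NC and 41.9, 26.7 and 3.94 FPKM with siPrp19, low in replicate 3 of both groups. ISL1, in contrast, stayed between 24.9 and 31.7 FPKM. Of the 6 fibroblast markers, which matter here because fibroblasts make many of these collagens, 5 had a mean of at least 0.5 FPKM. Their sum was 81.5 to 97.9 FPKM with NC and 79.1 to 93.9 FPKM with siPrp19, so the groups overlapped, with LUM and PDGFRB high and TWIST2 between 0.234 and 0.61 FPKM. Summed markers of Schwann cells (1.91 to 3.32 FPKM with NC, 2.72 to 3.3 with siPrp19), endothelium (0.322 to 0.454, and 0.237 to 0.336), leukocytes (0.648 to 0.97, and 0.742 to 1.65) and epithelium (1.71 to 2.07, and 2.17 to 3.02) were low, with SOX10, CD3E and KRT5 at 0 in all 6 samples. The part of any of these cells in the results was not tested, and in bulk RNA fewer cells of a type and less RNA per cell cannot be told apart.

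The levels were carried by a few chains in each family. COL1A1, COL6A2, COL6A1 and COL5A1 made up 63% of the summed collagen FPKM with NC, LAMB1 and LAMC1 made up 80.7% of the laminin sum, and ITGB1 and ITGAV made up 62.9% of the sum over the integrin symbols. Members' NC means ran from 0.482 FPKM (LAMB3) to 53.8 FPKM (LAMB1), with a median of 4.6 FPKM. Of the 41, 11 stood at 10 FPKM or more with NC and 5 stood below 1 FPKM. Of the 43 genes below the level, 27 had a mean under 0.1 FPKM, and none was at 0 in all 6 samples. The summed collagen level was 228 ± 24.9 FPKM with NC and 224 ± 14 FPKM with siPrp19 (SD, n = 3). The laminin sum was 113 ± 3.37 and 109 ± 4.74 FPKM, and the integrin sum was 109 ± 11.9 and 104 ± 12.5 FPKM (SD, n = 3). In each family the groups overlapped. Within the pairs, the integrin sum was lower in 3 of 3, from 98.6 to 91.1, 107 to 104 and 122 to 116 FPKM. The collagen sum was 234, 249 and 200 FPKM with NC and 234, 231 and 208 FPKM with siPrp19, and the laminin sum was 117, 111 and 112 FPKM and then 111, 103 and 112 FPKM, so neither had a clear difference in every pair.

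**Figure D1:**
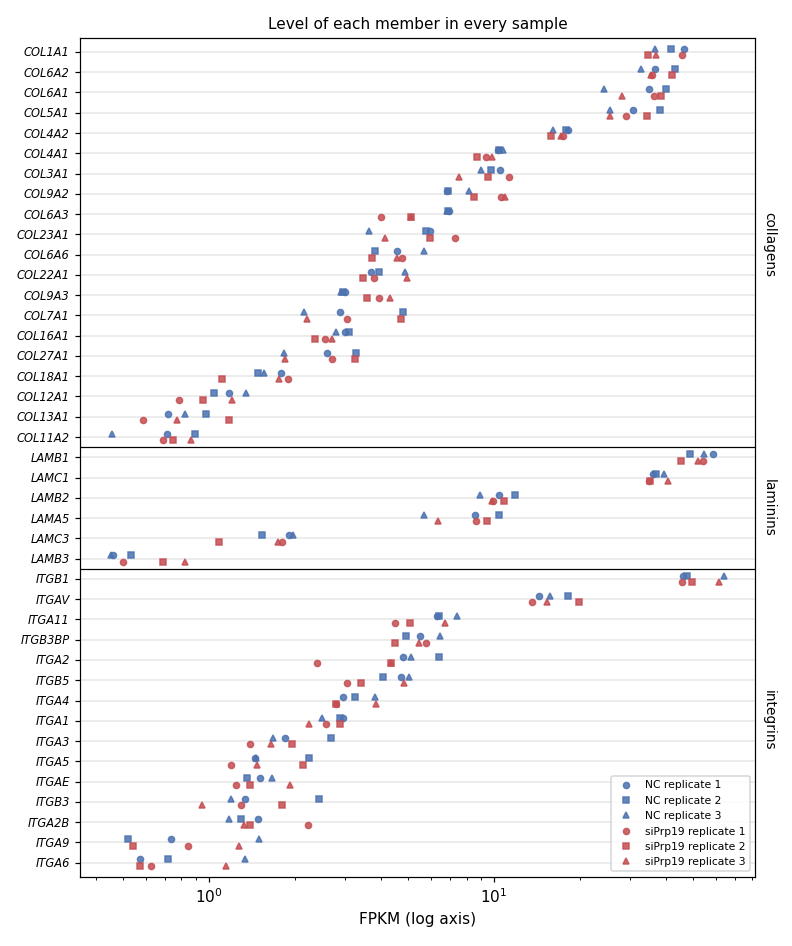
Level of each of the 41 members in every sample, in FPKM on a log axis, with NC samples in blue, siPrp19 samples in red and the replicate number as the symbol. Families are ordered by mean level. Both colours are fully apart in 6 rows (COL4A1, COL6A3, COL16A1, ITGA2, COL9A2 and COL9A3), and for COL7A1, ITGA9 and ITGA6 the replicate numbers lie farther apart than the colours.

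Most members differed little between siPrp19 and NC. Changes are given as siPrp19 minus NC on the log2(FPKM + 0.1) scale, which understates those of low genes, and as the mean over the same-numbered pairs. The median was −0.05 over the 41 members, −0.04 over the collagens, −0.02 over the laminins and −0.11 over the integrin symbols, against −0.00 over all 17610 genes tested. Family medians in pairs 1, 2 and 3 were 0.00, −0.09 and 0.02 for collagens, −0.06, −0.11 and 0.09 for laminins and −0.08, −0.12 and −0.06 for integrins. The integrin median was therefore below 0 in each pair, while the collagen and laminin medians changed sign in pair 3. Without ITGB3BP the integrin median was also −0.11, over 14 genes. The integrin median depended on single samples, with −0.01 without NC replicate 3, −0.02 without siPrp19 replicate 1 and −0.18 without NC replicate 1 or without siPrp19 replicate 3. The collagen median was −0.11 without NC replicate 3 and 0.02 without NC replicate 2 or siPrp19 replicate 3, and the laminin median was −0.10 without NC replicate 3 and 0.02 without NC replicate 2.

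In limma without a block, 0 of the 41 members passed an adjusted p of 0.05, as did 0% of all genes tested, and 3 members (COL9A2, COL6A3 and COL9A3) had an unadjusted p under 0.05, where 1.9% of all genes did. The replicate numbers pair the samples, since same-numbered NC and siPrp19 samples deviated together from their group means. With the replicate number as a block, 0 members again passed, as did 0% of all genes, and 6 members had an unadjusted p under 0.05 (COL4A1, COL9A2, ITGA11, COL6A3, ITGA2 and COL9A3), where 14% of all genes did. With the block and a mean of at least 5 FPKM, COL9A2 passed among 18 members (limma adjusted p = 0.0486), where 1.57% of all genes did. With limma voom on the recovered reads and the block, 4 members were lower with siPrp19 (COL6A3, ITGA2, ITGA11 and ITGB5) and 2 were higher (COL9A2 and COL9A3), against 3.8% of all genes lower and 2.29% higher. Without the block, voom called 0 members and 0 genes (269 genes at an unadjusted p under 0.05). Of these 6 calls, those other than COL9A2 were made only with the count model and the block together. With 1 pair left out, voom and the block called 3 members without pair 1, 5 without pair 2 and 7 without pair 3. Of all 17557 genes in voom, 259, 608 and 1362 were called, against 1070 with all pairs. The 7 members included COL16A1 and ITGA3 but not COL9A3. More genes were thus called without pair 3, on fewer samples. An adjusted p with a pair left out is therefore no measure of stability. The SE and p of limma and voom draw on variance shared across genes, and are not a gene's own spread between pairs. The SD of the pair differences (log2) was 0.21 for COL6A3, 0.37 for ITGA2, 0.17 for ITGA11 and 0.28 for ITGB5. It was 0.16 for COL9A2 and 0.14 for COL9A3.

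By sign alone, 12 of 41 members (29.3%) were lower in 3 of 3 pairs, where 20% of all genes were, and 5 (12.2%) were higher in 3 of 3 pairs, where 18.5% of all genes were. Among the 12 were 6 of the 15 integrin symbols, 4 of 20 collagens and 2 of 6 laminins. Every siPrp19 sample lay below every NC sample for 4 members (COL4A1, COL6A3, COL16A1 and ITGA2), a pattern that 2.95% of all genes showed. Every siPrp19 sample lay above every NC sample for COL9A2 and COL9A3, as for 3.01% of all genes. No member with the same sign in 3 pairs reached a mean 1.5-fold change, and ITGA2 came nearest.

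**Figure D2:**
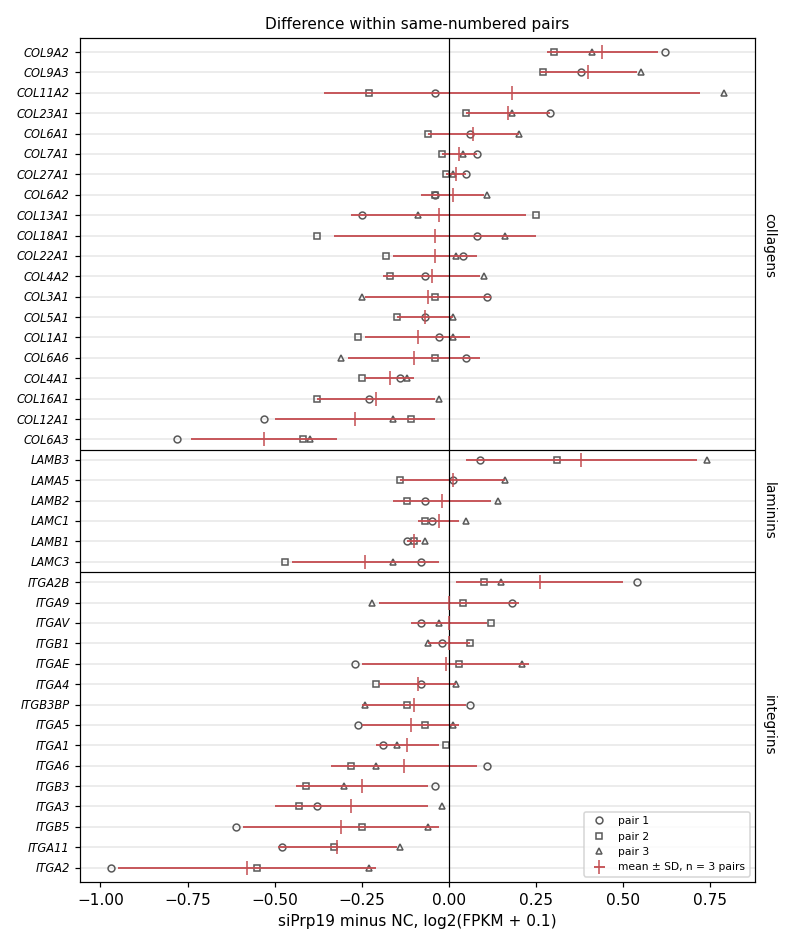
siPrp19 minus NC of each member within pairs 1 (circles), 2 (squares) and 3 (triangles), on the log2(FPKM + 0.1) scale, with the mean and SD of the 3 pairs in red. COL9A2 and COL9A3 lie to the right of 0 in every pair, COL6A3 and ITGA2 lie farthest to the left, and most other members have pairs on both sides of 0 or close to it.

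Fibrillar collagens, which assemble into the banded fibres of connective tissue, were led by COL1A1, the α1 chain of type I collagen. COL1A1 measured 46.5, 41.6 and 36.6 FPKM with NC and 45.7, 34.7 and 36.9 FPKM with siPrp19. COL5A1, a chain of the type V collagen that sets fibril diameter, measured 30.7, 38.2 and 25.4 FPKM and then 29.1, 34.4 and 25.5 FPKM. In both genes the groups overlapped, with mean pair differences of −0.09 ± 0.15 for COL1A1 and −0.07 ± 0.08 for COL5A1 (log2, SD, n = 3 pairs). Their usual partner chains were nearly absent. COL1A2, which joins 2 COL1A1 chains in type I collagen, had 1 to 11 reads per sample, where COL1A1 had 7076 to 10191. COL5A2 had a mean of 0.364 FPKM and 33 to 75 reads per sample. COL3A1, the only chain of type III collagen, averaged 9.6 FPKM and differed by 0.11, −0.04 and −0.25 in the 3 pairs. COL27A1 and COL11A2 also passed the level. Of the 5 fibrillar chains measured, 0 were called in limma or voom, and 0 had an unadjusted p under 0.05 in limma with or without the block.

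The network-forming chains COL4A1 and COL4A2 make up the type IV collagen of most basement membranes. COL4A1 measured 10.3, 10.4 and 10.7 FPKM with NC and 9.35, 8.72 and 9.86 FPKM with siPrp19. The groups did not overlap, but the difference was small, −0.14, −0.25 and −0.12 in the 3 pairs, and missed the threshold (limma adjusted p = 0.318 with the block, and 0.0937 with voom and the block). COL4A2 measured 18.2, 17.8 and 16.1 FPKM and then 17.4, 15.8 and 17.2 FPKM, and its groups overlapped. The genes lie head to head on chromosome 13, with RefSeq starts at 110307157 and 110307284 and 126 bases between them. The ratio of COL4A1 to COL4A2 was 0.606 ± 0.0531 with NC and 0.554 ± 0.0172 with siPrp19 (SD, n = 3). Both levels rest on gene lengths that differ from GENCODE 29, 8188 in place of 14738 bases for COL4A1 and 17412 in place of 19293 for COL4A2. The other 7 network chains were below 0.5 FPKM, and COL4A5 had at most 1 read in a sample.

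Type VI collagen, which forms beaded microfilaments around cells from COL6A1, COL6A2 and COL6A3, had chains of the same trimer that parted. COL6A3 (ENSG00000163359, chromosome 2, 237324003 to 237414375, minus strand) measured 6.94, 6.9 and 6.81 FPKM with NC and 4.01, 5.13 and 5.13 FPKM with siPrp19. Its NC samples were nearly equal, all siPrp19 samples lay below them, and the mean was 69.1% of NC on 1790 to 2974 reads per sample. The pair differences were −0.78, −0.42 and −0.40, the largest in pair 1. With voom and the block COL6A3 differed by −0.54 (log2, SE 0.06, limma voom adjusted p = 3.86e-07), and with 1 pair left out by −0.61 to −0.42. The limma voom adjusted p was then between 1.11e-16 and 9.08e-05. Its lower end lay below the value with all pairs, so it is no measure of stability. The limma adjusted p on FPKM was 0.239 with the block and 1.0000 without it. COL6A2 measured 36.7, 43.2 and 32.8 FPKM with NC and 35.8, 42 and 35.4 FPKM with siPrp19. COL6A1 measured 34.8, 40.2 and 24.3 FPKM and then 36.4, 38.5 and 28 FPKM. Neither differed beyond the spread between samples, with mean pair differences of 0.01 ± 0.09 for COL6A2 and 0.07 ± 0.13 for COL6A1. The ratio of COL6A3 to COL6A2 was 0.185 ± 0.0243 with NC and 0.126 ± 0.0169 with siPrp19 (SD, n = 3), lower in each siPrp19 sample than in any NC sample, whereas that of COL6A1 to COL6A2 was 0.873 ± 0.113 and 0.908 ± 0.113. COL6A6, an alternative to COL6A3 in some tissues, averaged 4.51 FPKM, with pair differences of 0.05, −0.04 and −0.31.

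Type IX collagen, a fibril-associated (FACIT) collagen best known from cartilage, ran the other way. COL9A2 (ENSG00000049089, chromosome 1, 40300487 to 40317813, minus strand) measured 6.85, 6.88 and 8.18 FPKM with NC and 10.6, 8.48 and 10.9 FPKM with siPrp19. COL9A3 (ENSG00000092758, chromosome 20, 62816244 to 62841159, plus strand) measured 3.01, 2.94 and 2.9 FPKM and then 3.94, 3.57 and 4.31 FPKM. In both genes all siPrp19 samples lay above all NC samples, with means of 137% and 134% of NC. COL9A2 differed by 0.62, 0.30 and 0.41 in the pairs and by 0.45 with voom and the block (SE 0.08, limma voom adjusted p = 0.000198), which was between 2.99e-05 and 0.0395 with 1 pair left out. COL9A3 differed by 0.38, 0.27 and 0.55 and by 0.42 with voom and the block (SE 0.10, limma voom adjusted p = 0.0072). Its adjusted p was 0.0689 without pair 1 and 0.0682 without pair 3, on 250 to 516 reads per sample. The reads of both genes rest on lengths that differ from GENCODE 29. They are 4151 in place of 4217 bases for COL9A2 and 4831 in place of 4841 for COL9A3. On FPKM the limma adjusted p with the block was 0.238 for COL9A2 and 0.247 for COL9A3. The ratio of COL9A2 to COL9A3 was 2.48 ± 0.299 with NC and 2.53 ± 0.156 with siPrp19 (SD, n = 3), so the chains kept their proportion within the spread. COL9A1, the third chain of the trimer, had 0 to 6 reads per sample.

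Of the other FACIT collagens, COL16A1 and COL12A1 were lower in 3 of 3 pairs and COL22A1 was not. COL16A1 measured 3, 3.09 and 2.78 FPKM with NC and 2.55, 2.35 and 2.71 FPKM with siPrp19, without overlap, and with voom and the block its adjusted p was 0.152 (0.0394 without pair 3). COL12A1 differed by −0.53, −0.11 and −0.16. COL23A1, a transmembrane collagen, was higher in 3 of 3 pairs by 0.29, 0.05 and 0.18, and its groups overlapped. The anchoring-fibril collagen COL7A1, COL13A1 and the multiplexin COL18A1 had mean pair differences of 0.03, −0.03 and −0.04. Of the exon bases of COL18A1, 16.4% are shared with other genes, of which SLC19A1 shares the most.

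**Figure D3:**
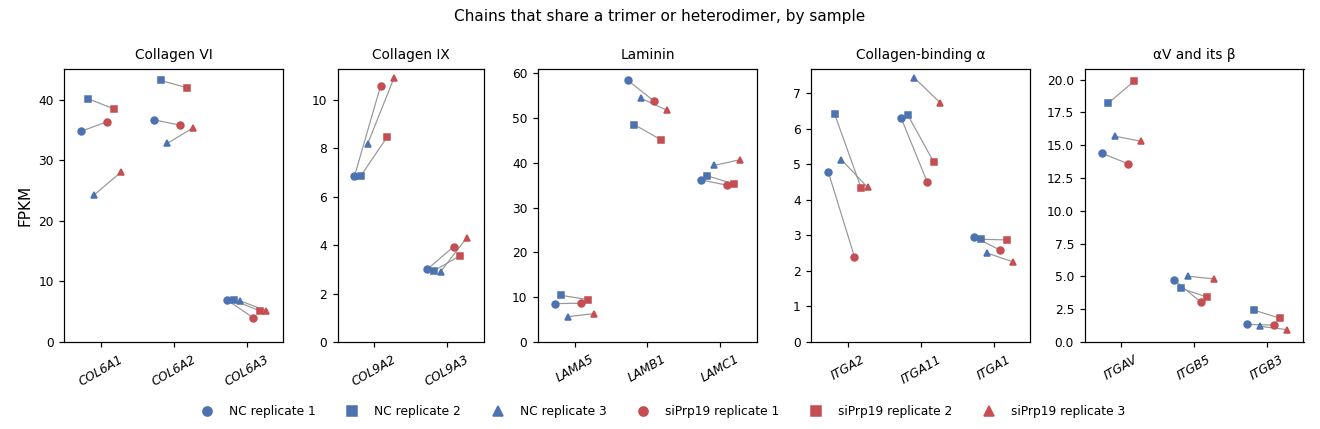
FPKM by sample of chains that assemble with each other or share a partner, with NC in blue, siPrp19 in red and lines joining same-numbered samples, each panel on its own axis from 0. COL6A3 is lower and COL6A1 and COL6A2 are level in the type VI panel, and both type IX chains are higher. ITGA2 and ITGA11 are lower in every pair, as are ITGA1, ITGB5, ITGB3 and LAMB1, some of them by little.

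The laminins were level. LAMB1, the β1 chain, measured 58.4, 48.5 and 54.4 FPKM with NC and 53.8, 45.2 and 51.7 FPKM with siPrp19. LAMC1, the γ1 chain found in most laminins, measured 36.2, 37.1 and 39.4 FPKM and then 35, 35.3 and 40.7 FPKM. LAMB1 was lower in 3 of 3 pairs by close to the same amount, −0.12, −0.10 and −0.07, but the groups overlapped and it missed the threshold (adjusted p = 0.361 with limma and the block, 0.272 with voom and the block). LAMB2, the β2 chain, measured 10.4, 11.8 and 8.89 FPKM and then 9.9, 10.8 and 9.79 FPKM. LAMA5 measured 8.57, 10.4 and 5.66 FPKM and then 8.65, 9.47 and 6.34 FPKM. LAMA5 was the only α chain over 0.5 FPKM, and the next, LAMA4, averaged 0.413 FPKM. The ratio of LAMA5 to LAMC1 was 0.221 ± 0.0702 with NC and 0.224 ± 0.0599 with siPrp19, and that of LAMB1 to LAMC1 was 1.43 ± 0.16 and 1.36 ± 0.15 (SD, n = 3). LAMC3 was lower in 3 of 3 pairs (mean −0.24 ± 0.21) and LAMB3, on 42 to 96 reads per sample, was higher in 3 of 3 pairs (mean 0.38 ± 0.33), with overlapping groups in both. No laminin passed the threshold in limma or voom, and 0 of the 6 had an unadjusted p under 0.05 in limma with or without the block.

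Among the integrins, the α subunits that bind collagen had the lowest median, and the β1 subunit they pair with had a mean difference near 0. Of the 4 such subunits, ITGA1, ITGA2 and ITGA11 passed the level, and all 3 were lower in 3 of 3 pairs, with a median of −0.32. The sum over all 4, ITGA10 included, was 15.1 FPKM with NC and 11.8 FPKM with siPrp19. ITGA10 averaged 0.124 FPKM. The 250 bases upstream of the RefSeq starts (GRCh38.p14) of these subunits are shown because they differed in the same direction, and are given 5′ to 3′ on the gene's strand, with GC boxes (GGGCGG, read on both strands) in capitals. They lie at chr5:52989102-52989351 (plus strand) for ITGA2, chr15:68432164-68432413 (minus strand) for ITGA11 and chr5:52787666-52787915 (plus strand) for ITGA1.
ITGA2: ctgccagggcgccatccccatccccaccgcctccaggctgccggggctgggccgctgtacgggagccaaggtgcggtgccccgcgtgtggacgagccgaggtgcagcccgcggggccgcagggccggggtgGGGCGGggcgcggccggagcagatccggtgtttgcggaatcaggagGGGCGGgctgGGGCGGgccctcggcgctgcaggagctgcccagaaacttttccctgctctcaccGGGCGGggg
ITGA11: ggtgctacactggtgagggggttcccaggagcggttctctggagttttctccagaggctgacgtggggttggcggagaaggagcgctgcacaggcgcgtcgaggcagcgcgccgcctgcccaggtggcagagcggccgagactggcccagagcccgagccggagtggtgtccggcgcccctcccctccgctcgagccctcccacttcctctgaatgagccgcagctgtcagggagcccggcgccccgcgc
ITGA1: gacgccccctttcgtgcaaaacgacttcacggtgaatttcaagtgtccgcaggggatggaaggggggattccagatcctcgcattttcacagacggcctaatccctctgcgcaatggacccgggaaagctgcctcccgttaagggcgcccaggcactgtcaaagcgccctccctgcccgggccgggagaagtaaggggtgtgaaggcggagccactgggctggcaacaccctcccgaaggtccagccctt
The ITGA2 window holds 4 GC boxes, whose first bases lie 119, 73, 63 and 9 bases before the start, and is 76.4% G and C. Neither the ITGA11 window (71.2% G and C) nor the ITGA1 window (62%) holds any of the 5 motifs searched. Windows were at hand for 32 of the 41 members, some with several starts. A GC box lay in at least 1 window of 24 of these 32 genes and in 42.6% of all 35116 windows, counted per window. The other motifs searched on both strands were CCAAT (5 members, 32% of all windows), TATAAA (7 members, 10.7%), GGAATG, the core read by TEAD factors (4 members, COL11A2, COL12A1, ITGA5 and ITGB1, 11.9%), and TGANTCA, the AP-1 core (LAMB3, 6.57%). No motif is contained in another, and a match is a run of letters, not a measured site.

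ITGA2 (ENSG00000164171, chromosome 5, 52989326 to 53094779, plus strand) encodes the α2 subunit of a collagen I receptor. It measured 4.79, 6.4 and 5.13 FPKM with NC and 2.4, 4.34 and 4.35 FPKM with siPrp19. All siPrp19 samples lay below all NC samples, replicate 1 farthest, and the mean was 67.9% of NC on 431 to 891 reads per sample. The pairs differed by −0.97, −0.55 and −0.23. With voom and the block ITGA2 differed by −0.57 (SE 0.09, limma voom adjusted p = 5.39e-05), and by −0.40 without pair 1 (adjusted p = 0.00946). On FPKM its limma adjusted p was 0.265 with the block and 1.0000 without it.

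ITGA11 (ENSG00000137809, chromosome 15, 68296533 to 68432162, minus strand), the α11 subunit, binds fibrillar collagen. It measured 6.3, 6.39 and 7.43 FPKM with NC and 4.49, 5.05 and 6.72 FPKM with siPrp19. The groups overlapped because replicate 3 was high in both, yet each siPrp19 sample was below its own NC sample, by −0.48, −0.33 and −0.14. With voom and the block ITGA11 differed by −0.32 (SE 0.07, limma voom adjusted p = 0.00239), but by −0.23 without pair 1 (adjusted p = 0.202). ITGA1, the α1 subunit, measured 2.96, 2.89 and 2.5 FPKM and then 2.58, 2.87 and 2.25 FPKM, a small difference in pair 2 (−0.01) and larger ones in pairs 1 and 3 (−0.19 and −0.15). ITGB1, the β1 subunit, measured 46.1, 47.3 and 64.2 FPKM with NC and 45.6, 49.3 and 61.7 FPKM with siPrp19, a mean pair difference of −0.00 ± 0.06 (log2, SD, n = 3 pairs). The ratio of ITGA11 to ITGB1 was 0.129 ± 0.0117 with NC and 0.103 ± 0.00524 with siPrp19, lower in each siPrp19 sample than in any NC sample. The ratio of ITGA2 to ITGB1 was 0.106 ± 0.0278 and 0.0704 ± 0.0178 (SD, n = 3), and here the groups overlapped.

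ITGAV, the αV subunit of receptors for RGD-containing ligands such as vitronectin and fibronectin, measured 14.4, 18.2 and 15.7 FPKM with NC and 13.6, 19.9 and 15.3 FPKM with siPrp19, with a mean pair difference of 0.00 ± 0.11. Its most abundant partner apart from ITGB1 was ITGB5 (ENSG00000082781, chromosome 3, 124761948 to 124901418, minus strand). ITGB5 measured 4.71, 4.09 and 5.02 FPKM and then 3.05, 3.42 and 4.81 FPKM, with pair differences of −0.61, −0.25 and −0.06. Its groups overlapped and pair 3 hardly differed. With voom and the block it differed by −0.30 (SE 0.09, limma voom adjusted p = 0.0403). The difference was −0.15 without pair 1 (limma voom adjusted p = 0.724), −0.32 without pair 2 (0.0979) and −0.45 without pair 3 (0.000793). The call was thus lost without pair 1 or pair 2, but the difference shrank only without pair 1. ITGB3 was lower in 3 of 3 pairs as well (mean −0.25 ± 0.19, adjusted p = 0.313 with voom and the block). However, 51.6% of its exon bases are shared with other genes, of which AC068234.1 shares the most. ITGB6 and ITGB8 were below 0.5 FPKM, at 0.0631 and 0.416 FPKM. ITGA5, the fibronectin receptor subunit, had a mean pair difference of −0.11 ± 0.14, and ITGA2B was higher in 3 of 3 pairs (mean 0.26 ± 0.24) with overlapping groups.

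Of the laminin-binding α subunits, ITGA3 measured 1.84, 2.68 and 1.68 FPKM with NC and 1.39, 1.96 and 1.65 FPKM with siPrp19, lower by −0.38, −0.43 and −0.02. It missed the threshold with voom and the block (adjusted p = 0.0687) and passed it without pair 3 (0.00597). ITGA6 averaged 0.831 FPKM and ITGB4, its partner in hemidesmosomes, 0.34 FPKM. ITGA4, ITGA9 and ITGAE had mean pair differences of −0.09, 0.00 and −0.01. ITGB3BP measured 5.51, 4.91 and 6.45 FPKM with NC and 5.76, 4.5 and 5.46 FPKM with siPrp19, with pairs on both sides of 0. Of the leukocyte integrins only ITGAE passed the level.

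**Figure D4:**
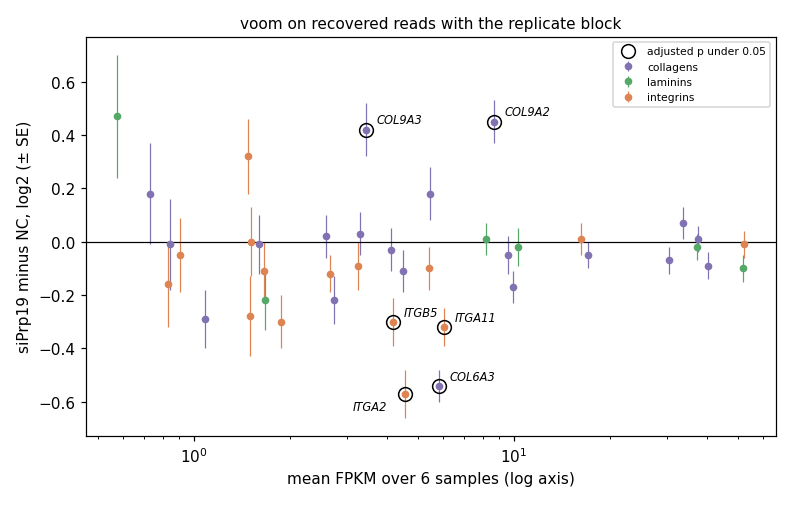
siPrp19 minus NC (log2, with its SE) from limma voom on recovered reads with the replicate block, against the mean FPKM over 6 samples on a log axis, for the 41 members coloured by family. The 6 circled genes have an adjusted p under 0.05 and a mean between 3.45 and 8.65 FPKM, and the members above 10 FPKM lie between −0.10 and 0.07.

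Members also varied between replicate numbers. The median SD between replicate numbers was 0.217 over the members, and the median SD of the pair differences was 0.152 (log2), against 0.26 and 0.157 over all genes tested. ITGA9 measured 0.737, 0.521 and 1.5 FPKM with NC and 0.845, 0.54 and 1.27 FPKM with siPrp19, high in replicate 3 of both groups. COL7A1 measured 2.89, 4.8 and 2.16 FPKM and then 3.06, 4.72 and 2.21 FPKM, high in replicate 2 and low in replicate 3 of both groups. Both replicate 3 samples lay above the other 4 samples for 10 members (24.4%, against 23% of all genes) and below them for 11 (26.8%, against 21.5%). Among the former were ITGA6, ITGA9, ITGB1, ITGB5 and ITGA11, and among the latter COL27A1, COL6A1, COL5A1, LAMA5 and ITGB3. What the replicate numbers share is not given in the labels, and its part in these levels was not tested.

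The members shared features that the selection did not use. Counted in the annotated transcript with the most exons, members had 10 to 118 exons, with a median of 32. The median over 12261 protein-coding genes tested was 9. Across the members, the Spearman correlation of the mean pair difference with exon number was 0.13 (n = 41 genes), and with exon length it was −0.42. Within the 20 collagens, that with exon number had the other sign, −0.40 (−0.45, −0.43 and −0.33 in the 3 pairs), and over the 12261 genes it was 0.01. Across the 20 collagens, exon length correlated with the mean pair difference at −0.72 (−0.62, −0.55 and −0.62 in the 3 pairs), and COL6A3, at 19633 bases, was the longest. Over the 12261 genes the same correlation was −0.10. These are descriptions across genes that share all 6 libraries, and genes are not independent replicates.

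Other genes of matrix and adhesion were read from 4 lists. No gene of any list passed limma without the block or with it at the same level filter, and at an unadjusted p under 0.05 limma with the block gave 8 of 29, 6 of 14, 4 of 25 and 4 of 11 genes in the order biosynthesis, ligands, machinery and receptors, where 14% of all genes did. With voom and the block, where 3.8% of all genes were lower and 2.29% higher, 4 of 14 other matrix ligands were lower and 1 was higher, with a median difference of −0.19. Thrombospondin 1 (THBS1) measured 20.7, 18.7 and 13.7 FPKM with NC and 12.3, 13.7 and 7.99 FPKM with siPrp19 (−0.66, limma voom adjusted p = 3.49e-09). Fibronectin (FN1), the main ligand of ITGA5, measured 53.1, 67.9 and 28.6 FPKM and then 39.4, 54.6 and 23.3 FPKM (−0.35, limma voom adjusted p = 3.55e-06). FN1 was lower in 3 of 3 pairs but differed more between replicate numbers, and both genes also passed limma with the block and a mean of at least 5 FPKM. The laminin linker NID1 (−0.26) and fibrillin FBN1 (−0.21) were the other lower ligands, and agrin (AGRN), which binds laminin, was higher (0.37, limma voom adjusted p = 0.00484). Of 29 genes of collagen biosynthesis and crosslinking, 4 were lower and 0 higher, with a median of −0.05. They were the lysyl hydroxylase PLOD2 (−0.56), the crosslinking enzyme LOXL2 (−0.31), the procollagen protease ADAMTS2 (−0.21) and the coat protein SEC23A (−0.20). PLOD2 measured 3.53, 7.58 and 0.688 FPKM with NC and 2.05, 5.54 and 0.538 FPKM with siPrp19, so replicate 3 stood far below the others in both groups. Of 25 genes of the integrin adhesion machinery, 3 were lower and 0 higher, with a median of −0.09: vinculin (VCL, −0.33), LIMS1 (−0.30) and the tensin TNS1 (−0.20). Talin (TLN1, 0.06) and focal adhesion kinase (PTK2, 0.01) were not called. Of 11 other matrix receptors, CD44 was lower (−0.20, limma voom adjusted p = 0.039), with a list median of 0.06, and the collagen receptors DDR1 and DDR2 differed by −0.08 and 0.06. Over the 4 lists, 13 genes were called with all pairs, 4 without pair 1, 7 without pair 2 and 23 without pair 3. Of all 17557 genes in voom, 1070 were called with all pairs and 259, 608 and 1362 without pairs 1, 2 and 3.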

How the data were processed

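Total RNA of SK-N-BE(2) cells was sequenced from libraries made with a NEBNext Ultra kit. The authors deposited 1 table of FPKM per sample for 58302 genes, with no counts. The submitters' processing notes name HISAT2 2.0.5, featureCounts 1.5.0-p3 and hg38, without their roles, and whether reads were counted by strand is not given in the sources used here. The study's methods name DESeq2 for its own test, whose results were not used.

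FPKM were tested as log2(FPKM + 0.1) for the 17610 genes that averaged 0.5 FPKM or more in limma 3.58.1 under R 4.3.3 (lmFit, eBayes with a trend), with Benjamini-Hochberg adjustment over all of them. Of 37521 genes of GENCODE 29 with a value above 0, 35969 (95.9%) gave whole reads (within 0.05 of a whole number) in all 6 samples when multiplied by exon length. For 920 genes a fitted length was used, and 19 had none. Those 19 kept values rounded at the annotated length. Reads of 17557 genes, these 19 among them, went into voom. The spread between samples, limits the precision. The study's methods call the samples biological replicates, but the labels do not tie them to separate cultures, so p-values may measure technical spread.

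The replicate numbers in the labels pair the samples: deviations from the group means correlated at 0.26, 0.41 and 0.49 in same-numbered samples over all genes and at 0.67, 0.87 and 0.83 over the members. The members, gene lists and tests were chosen with earlier results of these data known. Values in every sample were fixed for the 4 highest members of each family in NC, the members past the threshold in limma with or without the block or in voom with the block, and members of the same sign in 3 pairs with a 1.5-fold change, of which there were none. Values in every sample of COL4A1, COL4A2, COL16A1, ITGA1, ITGA3, ITGA9, COL7A1 and the genes of the 4 lists were added after values were seen. The alternatives were a pseudocount of 1, other filters, TPM, quantile normalization, the block, voom, another variance model and samples left out. The fits were tested on simulated data. Promoter windows came from RefSeq (GRCh38.p14). The windows shown for ITGA2, ITGA11 and ITGA1 were picked by name and hold 26, 0 and 20 bases of annotated exons. Windows of other members were not checked for exon bases. The exact permutation test was scipy's (1.17.1).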

Additional observations from a re-analysis of the deposited data

How the results depend on the processing

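Across the 21 alternatives, 31 differences of the 17 named members and PRPF19 had another sign than the reported one, all in members whose reported difference was between −0.10 and 0.07. The count of all genes called, 0 as reported (334 at an unadjusted p under 0.05 in limma), was 30 with no filter, 4 without trend and robust, 124 with the replicate block and a mean of at least 5 FPKM and 1070 with voom and the replicate block. With voom, the block and 1 pair left out, an alternative chosen after seeing the data, it was 259, 608 and 1362 without pairs 1, 2 and 3. Members called were 1 with the block and a mean of at least 5 FPKM, 6 with voom and the block, and 3 to 7 with a pair left out. Genes of the 4 lists called were 2, 13 and 4 to 23 under the same settings. Added to limma on FPKM at the 0.5 FPKM filter, the block changed no call. PRPF19 (−1.04) passed with the block and a mean of at least 5 FPKM (limma adjusted p = 0.0176) and with voom and the block (2.14e-14), and with a pair left out it was −0.93, −1.11 and −1.09. With 1 sample or pair left out, the collagen median ranged from −0.11 to 0.02, the laminin median from −0.10 to 0.02 and the integrin median from −0.18 to −0.01 (−0.15 with voom, the block and pair 1 left out). The integrin median was −0.07 with a pseudocount of 1 and −0.05 for genes of 5 FPKM or more, block or no block. The rank correlation of members' differences with exon number (0.13) was −0.19 for genes of 5 FPKM or more, block or no block, −0.03 with both replicate 3 samples left out, and from −0.25 to 0.22 with 1 sample left out. The causes were not tested. Members under 1 FPKM rest on few reads, such as 42 to 96 for LAMB3.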
